A study of Mus musculus with 2 samples.

Results

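The genes described here move peptides into the endoplasmic reticulum (ER), trim them there and load them onto major histocompatibility complex (MHC) class I molecules. They are Tap1, Tap2, Tapbp, Tapbpl, Erap1, Calr, Canx and Pdia3, together with Nlrc5, the gene for the class I transactivator. Members were chosen by gene name: all 20 probe sets annotated to these 9 genes were taken, out of 45037 probe sets and 18193 named genes on the array. They were read in mouse cells of the retinal pigment epithelium (RPE), a pigmented layer beneath the photoreceptors, grown as primary cultures. One culture was left untreated, and the other received 100 U/ml of the cytokine interferon gamma (IFNg) for 24 h. The labels of both cultures name 14 days in a medium with serum, an overnight period in serum-free medium before RNA extraction, and a cytokeratin-positive fraction of 95%. They do not state whether the IFNg treatment overlapped the serum-free period, or whether both cultures spent the same time in each medium, so a difference in medium and the treatment cannot be told apart. The strain, age and number of the mice were not given in the sources used here. Each culture was hybridised to 1 array, so there is no replicate, no test and no p-value. Precision is limited by this number of arrays, and each ratio describes these 2 cultures.

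Peptides for class I molecules are made mostly by the proteasome in the cytosol. The transporter TAP, a dimer of the Tap1 and Tap2 products, pumps them into the ER, where the aminopeptidase ERAP1 shortens them. Newly made class I heavy chains are held by the lectin-like chaperones calnexin (Canx) and calreticulin (Calr), and the peptide-loading complex joins TAP to tapasin (Tapbp), calreticulin and the disulphide isomerase ERp57 (Pdia3). The tapasin-related protein TAPBPR (Tapbpl) exchanges peptides outside that complex, and NLRC5 acts in the nucleus on promoters of class I genes. IFNg is known for raising class I presentation in many cell types.

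Values are deposited signal intensities of probe sets, groups of short probes that read 1 or more transcripts. Signals under 20.4, the median of both arrays together, were set to that floor, because dim signals are hard to tell from background. A gene took its value from its brightest probe set. A gene with a signal above the floor on 1 or both arrays counted as measured. Where 1 array lay at the floor, the ratio is a lower bound and is written "at least". Probes differ in how strongly they bind, so a brighter probe set does not mean a more abundant transcript, and genes are compared by their ratios. The 2 arrays had median signals of 20.1 (untreated) and 20.8 (IFNg).

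Of the 9 genes, all were measured and 6 were higher by at least 2-fold on the IFNg array, that of the treated culture. These were Nlrc5, Erap1, Tap1, Tapbpl, Tap2 and Tapbp. Of all 12743 measured genes, 8.82% were at least 2-fold higher. The count of members 2-fold lower was 0, against 4.48% of all measured genes, and Canx, Pdia3 and Calr lay within 2-fold. The median log2 ratio of IFNg over untreated was 2.76 for the 9 genes and -0.12 for all measured genes. With log2 ratios averaged over each gene's measured probe sets, the median of the 9 genes was at least 1.76, as bounds of dim probe sets enter it. By probe set, 8 of 18 measured member probe sets passed 2-fold higher and 0 passed 2-fold lower, against 9.66% and 4.42% of all 25831 measured probe sets. The remaining 2 member probe sets, both of Tap1, were at the floor on both arrays.

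**Figure D1:**
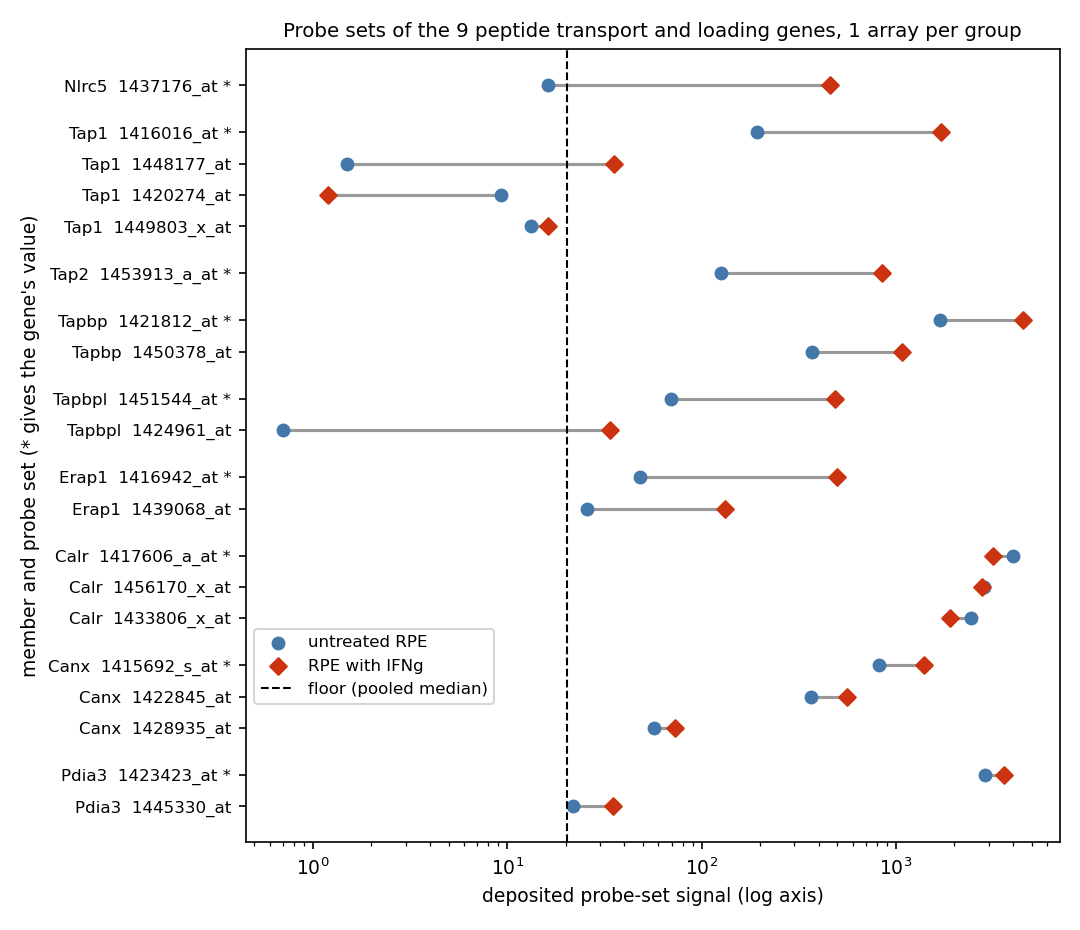
Deposited signal of each of the 20 probe sets (rows) on the untreated array (blue circles) and the IFNg array (red diamonds), on a log axis, with the floor of 20.4 as a dashed line. There is 1 array per group, so no error bar can be drawn. Every probe set of Nlrc5, Tap2, Tapbp, Tapbpl and Erap1 was brighter with IFNg, as were the 2 probe sets of Tap1 that crossed or exceeded the floor, whereas the probe sets of Calr were slightly dimmer.

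The transactivator gene Nlrc5 had the highest bound among the members. Its single probe set, 1437176_at, had signals of 16.2 without and 457.4 with IFNg. The untreated signal lies under the floor, so Nlrc5 was at least 22.4-fold higher with IFNg. The size of that bound follows the floor. It was at least 5.28-fold when the floor was raised to 86.6 (the 75th percentile of all signals). That bound lay under the values of Tap1 (8.95-fold) and Tap2 (6.78-fold) at the same floor, so the first place of Nlrc5 also follows the floor. Nlrc5 was 28.2-fold higher with the floor lowered to 5.80 (the 25th percentile), at which both signals are measured. Ciita, the class II transactivator of the same NLR protein family, had signals of 2.5 and 48.2, a bound of at least 2.36-fold. Its other probe sets, at 3.1 and 6.3 and at 3.1 and 1.2, were at the floor on both arrays. Apart from Nlrc5, 3 of 8 matched NLR genes were measured. Among these the cytosolic sensor Nod1 was 3.05-fold higher, at 125.2 and 381.5, and Nlrx1, which acts at mitochondria, was level at 88.6 and 88.5.

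Both TAP subunit genes were higher with IFNg. Tap1, by its brightest probe set 1416016_at, had signals of 191.7 and 1715.7, which is 8.95-fold higher with IFNg and ranks 41 among 10441 genes with both arrays above the floor. Tap2 has 1 probe set, 1453913_a_at, with signals of 125.2 and 849.2, which is 6.78-fold higher (rank 56). Its ID ends in _a_at, an ending treated here as a mark of shared sequence. Whether these probes read other genes was not examined. The log2 ratios of the pair differed by 0.40, less than 0.44, the SD of log2 ratios between probe sets of the same gene (4419 genes). This SD is technical and holds no spread between cultures.

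The other probe sets of Tap1 were dim. The probe set 1448177_at was above the floor only on the IFNg array, with signals of 1.5 and 35.5 (at least 1.74-fold). Signals of 9.3 and 1.2 for 1420274_at, and of 13.2 and 16.2 for 1449803_x_at, were under the floor on both arrays and give no ratio. With all measured probe sets averaged per gene, Tap1 was at least 3.95-fold higher. This is a bound because that mean takes in the small bound of the dim probe set. The bound on the log2 ratio of Tap1 then lay 0.78 below the value of Tap2, more than the probe-set SD. How the pair compares under this choice is therefore not settled. The other genes of the ABCB family, to which both TAP subunits belong, were not 2-fold different in either direction, in 7 of 7 measured members (8 matched). Their median log2 ratio was -0.42. Abcb9, which encodes the lysosomal peptide transporter TAPL, had signals of 35.6 and 21.5 (log2 ratio -0.73). Abcb4, a phospholipid transporter, was at 35.2 and 14.9 (-0.79, limited by the floor), Abcb6 at 98.3 and 69.9 (-0.49), and the drug transporter Abcb1a at 27.2 and 18.9 (-0.42, limited by the floor).

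In the order of the RefSeq gene table (assembly GRCm38.p6), Tap1 and Tap2 stand on chromosome 17 in a row of 4 genes with the immunoproteasome genes Psmb9 and Psmb8: Psmb9, Tap1, Psmb8, Tap2. All 4 were over 6-fold higher with IFNg. Psmb9 had signals of 69.6 and 2551 (36.6-fold), and Psmb8 165.5 and 2598.6 (15.7-fold). The region around this row holds class II genes. The next gene beyond Tap2, H2-Ob, had signals of 11.2 and 23.7, a bound of at least 1.16-fold. After it, the class II chain genes H2-Ab1 (33 and 622.2, 18.9-fold) and H2-Aa (2.2 and 1551.4, at least 76.0-fold) were higher with IFNg, as was the peptide-editor chain H2-DMb2 on the other side (5.8 and 56.4, at least 2.76-fold). High ratios in this stretch of the chromosome were therefore not limited to the row of 4 genes.

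Tap1 and Psmb9 are read in opposite directions from starts that lie close together. The 225 bases between both starts at chr17:34187331-34187555 (RefSeq, GRCm38.p6, plus strand, which is the direction of Tap1) are shown because this short stretch lies before both genes at once. Capitals mark a CCAAT box and a GC box (GGGCGG, here on the minus strand).
Tap1 to Psmb9: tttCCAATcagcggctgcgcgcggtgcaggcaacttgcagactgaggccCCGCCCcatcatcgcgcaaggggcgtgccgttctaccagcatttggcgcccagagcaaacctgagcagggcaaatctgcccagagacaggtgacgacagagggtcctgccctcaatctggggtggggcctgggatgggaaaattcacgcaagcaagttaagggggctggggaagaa

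Each of these boxes is common: CCAAT was found in 33.8% and GGGCGG in 32.7% of 32851 RefSeq windows of 250 bases before a start, on either strand. They were picked after the sequence was seen. The stretch held 0 matches to the core of the interferon-stimulated response element bound by IRF proteins (GAAA, any 2 bases, GAAA, on either strand). This says only that those letters are not in this window.

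Tapbp, the gene for tapasin, was higher with IFNg by a smaller factor than the transporter genes. Its probe sets had signals of 1684.4 and 4493.4 (1421812_at, 2.67-fold) and of 370.3 and 1070.5 (1450378_at, 2.89-fold). The probe sets thus lay close together, and both passed 2-fold. Genes within 3 places of it on chromosome 17 differed from one another. The histone chaperone gene Daxx was at 262.9 and 629.2 (2.39-fold higher), Zbtb22 at 280.2 and 150.6 (log2 ratio -0.90), Rgl2 at 207.6 and 194 (-0.10), Pfdn6 at 585.8 and 468.4 (-0.32) and Wdr46 at 192.6 and 87.4 (-1.14).

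Tapbpl, the gene for the tapasin relative TAPBPR, had signals of 69.4 and 483.5 (1451544_at), which is 6.97-fold higher with IFNg (rank 53 of 10441). A second probe set, 1424961_at, was nearly dark without IFNg and dim with it, at 0.7 and 33.6 (at least 1.65-fold). Averaging both probe sets gave at least 3.39-fold, as that mean takes in the small bound of the dim probe set. The log2 ratio of Tapbpl exceeded that of Tapbp by 1.38, more than the probe-set SD of 0.44. With probe sets averaged the gap was at least 0.29. That bound is under the SD, so the averaged values cannot show whether the difference between the pair holds.

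Erap1, the aminopeptidase that trims peptides to class I length, was also higher with IFNg by both of its probe sets. Its signals were 48.4 and 498.8 by 1416942_at, which is 10.3-fold higher with IFNg (rank 36 of 10441). A second probe set, 1439068_at, had signals of 25.8 and 132.7, which is 5.14-fold higher. Both probe sets passed 2-fold, with log2 ratios of 3.37 and 2.36. With the higher floor of 86.6 the untreated signal falls under it, and the ratio becomes a bound of at least 5.76-fold.

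Erap1 was the member with an interferon-response motif at its start. A 30-base stretch at chr13:74639839-74639868 (RefSeq, GRCm38.p6, plus strand) holds the response element core on the minus strand, shown in capitals, from 4 bases before the start to base 6 of the transcript.
Erap1: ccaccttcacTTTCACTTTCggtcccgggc

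That match lies across the start and was seen only when the search window was widened from the 250 bases before it to 300 bases, a choice made after the data were seen. In windows of 300 bases, 3.44% of the 32851 RefSeq promoters held this motif. In windows of 250 bases the share was 2.98%, and 0 of the 6 members in the table matched. Of measured genes whose 300-base window held the response element core, 76 of 365 (20.8%) passed 2-fold higher with IFNg, while 8.64% of all 10254 measured genes with a window were. Tap2, Tapbpl and Nlrc5 were not analysed for motifs here.

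**Figure D2:**
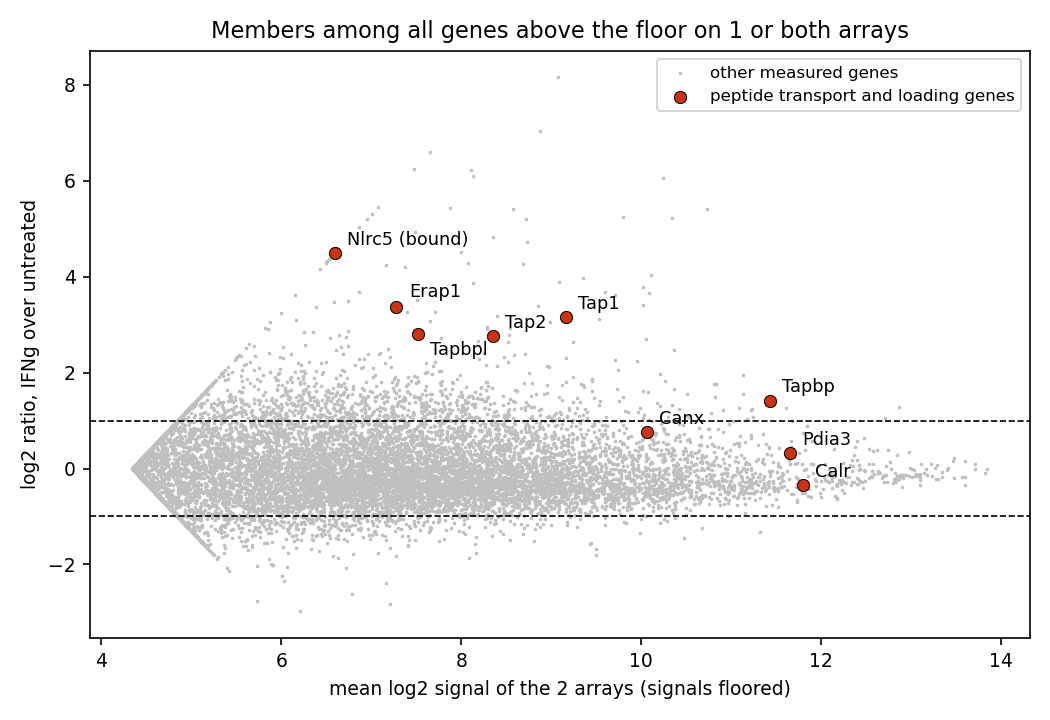
Log2 ratio of IFNg over untreated (y axis) against the mean log2 signal of the 2 arrays (x axis) for the 12743 measured genes (grey) and the 9 members (red), with dashed lines at 2-fold. The 6 members above the upper line run from Tapbp (1.42) to the bound of Nlrc5 (4.49), and the 3 general ER chaperones lie between the lines at -0.34 to 0.76.

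The general ER chaperones of the loading pathway, which also fold many other proteins, lay within 2-fold. Calr had bright signals by 3 probe sets, whose IDs all have endings treated here as a mark of shared sequence. The signals were 3997.6 and 3150.3 (1417606_a_at), 2845.6 and 2782.6 (1456170_x_at), and 2428.7 and 1897.5 (1433806_x_at). All 3 were slightly lower with IFNg, with log2 ratios of -0.34, -0.03 and -0.36. Canx was slightly higher by all 3 of its probe sets. Their signals were 820.8 and 1390.3 (1415692_s_at, 1.69-fold), 367.3 and 557.3 (1422845_at, 1.52-fold) and 56.9 and 72.8 (1428935_at, 1.28-fold). Pdia3 had signals of 2885.1 and 3592 (1423423_at, 1.24-fold) and, for a dim probe set, 21.7 and 34.9 (1445330_at, 1.61-fold). None of the 8 probe sets of these 3 genes reached 2-fold, whereas 8 of the 10 measured probe sets of the other 6 members did. Members were called by their brightest probe sets, so most of this contrast was set in advance. Among the other measured probe sets of the 6 called members, those of Tapbp and Erap1 passed 2-fold. The dim ones of Tap1 and Tapbpl gave bounds under 2-fold. The log2 ratio of Canx exceeded that of its relative Calr by 1.10, more than the probe-set SD.

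Calr and Canx share a motif that the other members in the promoter table did not hold. The ER stress response element, CCAAT, any 9 bases, CCACG, on either strand, was found before 2 of the 6 members, while 0.113% of RefSeq windows of 250 bases held it (37 windows). Its first letters are those of the CCAAT box. The matches are shown in capitals, at chr8:84847045-84847123 for Calr and chr11:50325770-50325848 for Canx (GRCm38.p6, each on the minus strand and written in the direction of the gene). The Calr match runs from 162 to 144 bases before the start, and the Canx match from 145 to 127.
Calr: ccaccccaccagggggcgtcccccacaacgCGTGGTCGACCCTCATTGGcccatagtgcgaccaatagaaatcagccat
Canx: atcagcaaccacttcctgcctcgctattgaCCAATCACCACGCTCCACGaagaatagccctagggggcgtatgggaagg

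The match lies on the opposite strand in Calr and on the strand of the gene in Canx. Of 15 measured genes with this element in the window, Calr and Canx among them, 2 (13.3%) passed 2-fold higher. The share was 8.64% for all 10254 measured genes with a window, and with so few genes the difference was not tested. The 2 were the ER chaperone genes Hspa5 and Hsp90b1, and the median log2 ratio of the 15 was 0.10. Both are also among 20 other measured ER chaperone and oxidoreductase genes. Of these 20, 3 were at least 2-fold higher and 0 were 2-fold lower, with a median log2 ratio of -0.10. Hsp90b1 had signals of 466.3 and 1172.9 (2.51-fold), Hspa5 2023.4 and 4855 (2.40-fold) and the oxidase gene Ero1a 891.9 and 2114.2 (2.37-fold), while the co-chaperone Dnajc3 was at 223.4 and 388.4 (1.74-fold). Of 4 other probe sets of Dnajc3, 2 passed 2-fold, with log2 ratios of 1.09 and 1.53. Other probe sets of Hspa5 had log2 ratios of 0.62 and -0.06, and another of Hsp90b1 was at 1.17. Of 11 ER stress response genes, 0 passed 2-fold, with log2 ratios from -0.62 (the stress sensor Eif2ak3) to 0.79 (Edem1, which acts in ER-associated degradation). Ddit3, a stress-induced transcription factor, was at 0.62, and the ubiquitin ligase Syvn1 at -0.59.

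Genes that act beside the members in class I presentation were also measured. Of 6 immunoproteasome and proteasome activator genes, 4 passed 2-fold higher, and their median log2 ratio was 2.09. They were Psmb9 and Psmb8, given above, Psmb10 (418.7 and 2705.9, 6.46-fold) and the activator subunit Psme1 (1080.6 and 3017.2, 2.79-fold). Of 14 class I chain genes listed, only 7 matched and 6 were measured. Of these 6, 3 were at least 2-fold higher, with a median of 0.97. The non-classical chain H2-M3 was at 129.3 and 499.1 (3.86-fold), B2m, the light chain, at 4770.5 and 11668.4 (2.45-fold), H2-K1 at 4652.5 and 9649.4 (2.07-fold), and Mr1, which presents metabolites, at 62.2 and 115.7 (1.86-fold). A second probe set of B2m was at 5111.4 and 8925.9 (log2 ratio 0.80), under 2-fold. Other probe sets of H2-K1 had higher log2 ratios, of 1.22, 2.56 and 2.14, and a second of Mr1 passed 2-fold at 1.06. H2-D1 was at 2718.7 and 4992.1 (1.84-fold), and its other measured probe sets had log2 ratios from -0.48 to 2.07. The classical chains are close paralogs, so the gene that such a probe set reads is uncertain.

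Other peptide-trimming enzymes showed smaller ratios than Erap1. Of 12 measured aminopeptidases and cytosolic peptidases, 3 were at least 2-fold higher and 0 were 2-fold lower, with a median log2 ratio of 0.24. Tpp2, a large cytosolic exopeptidase, was at 96.3 and 231.2 (2.40-fold), the leucine aminopeptidase Lap3 at 379.2 and 903.3 (2.38-fold), Nrdc at 162.7 and 384 (2.36-fold) and Blmh, the bleomycin hydrolase gene, at 392.9 and 734.9 (1.87-fold). Another 4 probe sets of Tpp2 had log2 ratios from 0.08 to 0.81, and a second probe set of Nrdc was level at 37.4 and 39.1. Enpep, a surface aminopeptidase, had the lowest value, -0.82.

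Of 13 measured genes for ER entry, glycan trimming, quality control and ER export, 0 passed 2-fold in either direction, with a median log2 ratio of -0.39. Uggt1, the folding sensor that re-tags immature glycoproteins, was at 342.9 and 630 (1.84-fold) and the ER membrane protein gene Bcap29 at 131.3 and 224.6 (1.71-fold). Tmem129, a ubiquitin ligase gene, was at 188.4 and 120.1 (log2 ratio -0.65) and the cargo receptor gene Surf4 at 1505 and 967.7 (-0.64).

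Among 13 measured regulators of class I and class II transcription, 6 were at least 2-fold higher and 0 were 2-fold lower, with a median log2 ratio of 0.24. The interferon regulatory factors Irf8 (32.5 and 987.7, 30.4-fold) and Irf1 (319.1 and 3391.1, 10.6-fold) had the highest values. Creb1 was at 34.9 and 109.8 (3.15-fold) and Nfyb, a subunit of the CCAAT-binding factor, at 83.4 and 242.9 (2.91-fold). Other measured probe sets of Creb1 had log2 ratios from -0.28 to 0.60, all within 2-fold. The subunits of the RFX complex, with which NLRC5 and CIITA work at promoters, lay within 2-fold: Rfx5 at 215 and 253.4, Rfxap at 142.8 and 108.1, and Rfxank at 70.7 and 51.1.

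**Figure D3:**
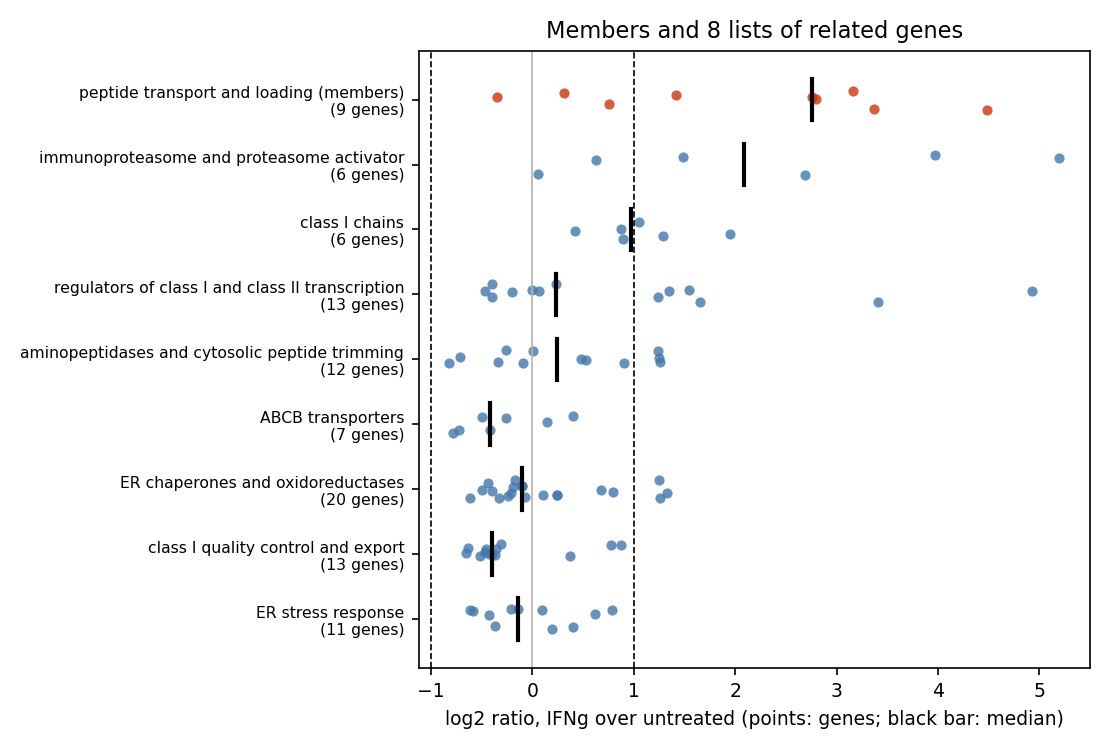
Log2 ratio of IFNg over untreated (x axis) for the 9 members (red) and for measured genes of 8 lists of related genes (blue; the NLR family is not drawn), 1 point per gene, with the median of each list as a black bar and dashed lines at 2-fold. Medians run from 2.76 for the members and 2.09 for the immunoproteasome list to -0.42 for the ABCB transporters.

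Ordered by log2 ratio, the members ran Nlrc5 (at least 4.49), Erap1 (3.37), Tap1 (3.16), Tapbpl (2.80), Tap2 (2.76), Tapbp (1.42), Canx (0.76), Pdia3 (0.32) and Calr (-0.34). From Erap1 to Tap2, each neighbour differed from the next by 0.04 to 0.36, under the probe-set SD of 0.44. Over longer steps among these 4 genes, Erap1 exceeded Tapbpl by 0.56 and Tap2 by 0.60, more than that SD. The SD describes single ratios, whereas a gap takes in the spread of both genes. The other probe set of Erap1, at 2.36, lay under the values of both Tapbpl and Tap2. With probe sets averaged, Erap1 was at 2.86 and Tap2 at 2.76, a gap under the SD. With the higher floor, Erap1 had a bound of at least 2.53, under the value of Tap2. Tapbpl gave only bounds under both settings. The order of Erap1 and Tap2 is therefore not settled. With the pseudocount of 16 in place of the floor, Tap1 (8.34-fold) stood above Erap1 (7.99-fold). The step from Tap2 down to Tapbp was 1.35, and from Tapbp to Canx 0.66. The step from Canx to Pdia3, 0.44, was close to the SD.

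Genes whose pair of floored log2 signals on the 2 arrays lay nearest to each called member were found by Euclidean distance over those 2 values. For Tap1 they were Parp9 (distance 0.26) and Zbp1 (0.38), and for Tap2 Samd9l (0.14) and Phf11d (0.16). For Tapbp they were Hspa5 (0.29) and Ifi35 (0.29), and for Tapbpl Nmi (0.28) and Cmpk2 (0.37). For Erap1 they were Cmpk2 (0.18) and Mlkl (0.34). For Nlrc5 they were Acod1 (0.007) and BC023105 (0.07), which were also at the floor without IFNg, so only the IFNg signal sets their distance. Probe sets differ in brightness, so these distances, which set levels of different probe sets side by side, are a weak likeness.

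Markers of the labelled cells and of other cell types were read on the same arrays. Of 12 RPE markers, 9 were measured, among them the tyrosinase gene Tyr (986.1 and 605.7) and the transcription factor Otx2 (410.9 and 388.5), while Rpe65 (5 and 1.1), Best1 and Dct were at the floor on both. Ttr, Tyrp1 and Rlbp1 were over 2-fold lower with IFNg. The 9 measured RPE markers had a median log2 ratio of -0.12 and summed signals of 3545 and 4089. The keratin gene Krt18 (1390.4 and 2445.9) made the sum higher, and without it the other 8 summed to 2154 and 1643. All 8 fibroblast markers were measured and lay within 2-fold, with summed signals of 43473 and 41598. The brightest were Col3a1 (12807.6 and 11389), Col1a2 (12169.7 and 10653.1), Col1a1 (11026.1 and 9774.7) and Dcn (4570.4 and 7056.3). Of 11 matched leukocyte and antigen-presenting cell markers, 8 were measured, 0 were 2-fold higher and 2 were 2-fold lower (Csf1r and Fcer1g). The 11 had summed signals of 1209 and 788. Above the floor on both arrays were Lyz2 (660.8 and 486.5), Csf1r (202.8 and 77.5), Cd68 (139.6 and 87.6), Tyrobp (56.3 and 31.4) and Adgre1 (51.3 and 44.8). The pan-leukocyte gene Ptprc was at 20.8 and 7, and Itgam, Aif1 and Cd3e were at the floor on both arrays. Of 4 endothelial markers, 3 were measured, and the 4 had summed signals of 102 and 68.3. The part of these differences in the members' ratios was not tested. In such bulk RNA, fewer cells of a type and less RNA per cell cannot be told apart.

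**Figure D4:**
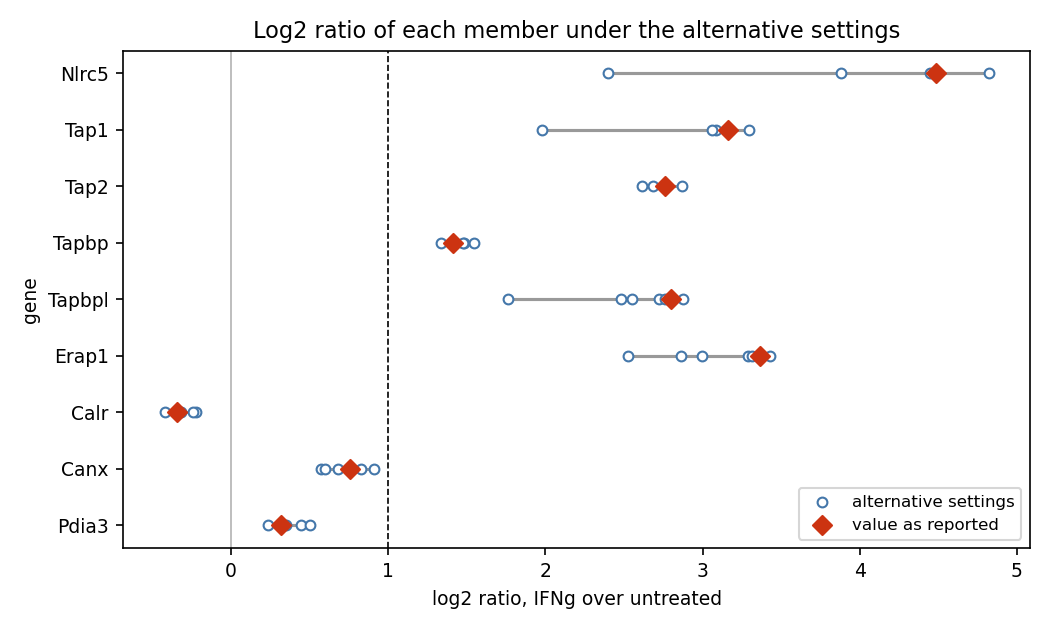
Log2 ratio of IFNg over untreated (x axis) for each member as reported (red diamonds) and under the alternative settings of scaling, floor and probe-set choice (open circles), with a line over their range and a dashed line at 2-fold. The 6 called members stay above the dashed line under each setting that gave a value, and Canx, Pdia3 and Calr stay below it.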

How the data were processed

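Total RNA from 2 cultures was reverse transcribed, amplified and labelled, and hybridised to 1 Affymetrix array each, per the labels' protocols. The deposited values of 45101 probe sets are linear signal intensity, ranging from 0.1 to 14896. How the authors summarised probes was not given in the sources used here. Cultures were grouped by title.

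The 64 control probe sets were left out, arrays were scaled to a common mean after trimming 2% at each end, a floor was set at the median of both arrays, and log2 was taken. Gene names came from the platform annotation, through probe sets with 1 gene (34945; 932 had several and 9160 none), updated by Entrez identifier. Of 154 list symbols, 136 matched. Sequences came from RefSeq (GRCm38.p6), which held promoters of 6 members. One further motif searched is not reported here.

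The members, gene lists, naming rule (all members, up to 4 genes per list by size of the log2 ratio, 2 nearest genes per called member) and motifs were chosen with earlier results of these data known. Genes named as neighbours on a chromosome, and other values named within lists, were added after values were seen. With 1 array per group no test was run. The calculation was tested on simulated arrays. Known folds were set there only in genes with untreated signals brighter than those of Nlrc5, Erap1 and Tapbpl. Ratios limited by the floor were therefore not covered. Analyses used Python 3.11.15, matplotlib 3.10.9, pandas 2.3.3, numpy 2.4.6, statsmodels 0.14.6 and scipy 1.17.1.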

Additional observations from a re-analysis of the deposited data

How the results depend on the processing

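With 1 array per group no replicate could be left out. Under 12 alternatives (no rescaling, quantile normalization, a loess curve, scaling to the 75th percentile, a pseudocount of 16, a lower floor of 5.80, a higher floor of 86.6, both arrays above the floor, the mean over probe sets, no probe sets of shared sequence, and thresholds of 1.5-fold and 3-fold) the count of members higher with IFNg ran from 5 to 7 and the count lower was 0. The count higher was 5 with both arrays required above the floor (Nlrc5 has no value) and at 3-fold (Tapbp lies under it), and 7 at 1.5-fold (Canx passes). It was also 5 without probe sets of shared sequence, taken as IDs ending in _a_at, _s_at or _x_at (Tap2 and Calr have none left). Of all measured genes, the share counted higher ran from 2.64% at 3-fold to 17.9% at 1.5-fold. Of 87 log2 ratios of members under alternatives, 0 changed sign and 6 moved by more than the probe-set SD. With probe sets averaged these were Tap1 (at least 1.98), Tapbpl (at least 1.76) and Erap1 (2.86). With the higher floor they were Erap1 (at least 2.53) and Nlrc5 (at least 2.40), and with the pseudocount Nlrc5 (3.88).

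The members' median log2 ratio was 2.09 with both arrays above the floor and at least 1.76 with probe sets averaged. At 1.5-fold, 13 of 18 measured member probe sets were higher, against 5098 of all 25831. The lower floor left 16565 genes measured and the higher floor 7765, against 12743 as reported. Over all genes, higher and lower counts were 1124 and 571, against 2258 and 2059 at the lower floor, 574 and 163 at the higher floor, 2287 and 2381 at 1.5-fold, and 336 and 59 at 3-fold. Over all probe sets, 2495 were higher, against 6834, 944, 5098 and 746 in the same order. Signal over background limits dim probe sets, so the sizes for Nlrc5 and the second probe sets of Tap1 and Tapbpl are the least certain.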
